A study of Mus musculus with 960 samples.

Results

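The Notch receptors Notch1, Notch2, Notch3 and Notch4, the ligands Jag1, Jag2, Dll1 and Dll4, and the targets Hes1 and Hey1 were examined in a list of accessible chromatin windows from a mouse breast tumour. These 10 genes were taken by name, and every listed window in a gene or within 20 kb of it was counted for that gene. Of the 50000 windows of the list, 90 met this rule. A start-site window of a gene was a window that overlapped the 1 kb on either side of the start of any of its protein-coding transcripts in GENCODE M1. By this definition 24 of the 90 windows were start-site windows of the 10 genes themselves, and 9 more lay at the start of another gene. The farthest window included lay 19631 bp from its gene (Notch2), and the closest window left outside lay 20226 bp away (Notch3). The farthest start-site window ended 933 bp from its start site (Hey1), and the closest window beyond the limit lay 1055 bp from a start site (Notch1).

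Pi-ATAC records the level of antibody-stained proteins in single fixed cells and sequences the DNA that Tn5 transposase tagged in their open chromatin. The cells came from breast tumours of MMTV-PyMT mice, in which the mouse mammary tumour virus promoter drives the polyoma middle T oncogene in mammary epithelium. The labels give 960 wells on 10 plates. On 8 plates the stains were for EpCAM, found on the surface of epithelial cells, and for HIF1α, which is stabilised when oxygen is low. On the other 2 plates they were for EpCAM and for CD45, found on cells of the blood lineage. All wells came from such tumours, none from normal tissue, and the labels name neither the animals nor their age.

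The window list was called on pooled cells, so it is 1 sample, and whether the wells stained for CD45 entered the pool is not stated. The list has no scores or read counts, so the depth behind a window is unknown, no replicate error can be given and no comparison between the staining groups was possible. Every count below is a description without a test, and the main counts are set beside the same count over all 22342 protein-coding genes or over all windows. A gene without a listed window was not shown to be closed, since only the windows ranked highest by the authors' peak call were kept. Of 10 luminal epithelial marker genes (such as Epcam and Krt8), 10 had a start-site window, and so did 0 of 5 basal, 0 of 6 blood, 0 of 5 endothelial and 0 of 5 fibroblast markers. The share was 52.2% over all genes and 22.2% over genes without a CpG-rich start site (defined below). Such a start site was found in 3 luminal and 1 endothelial marker. Some markers without a start-site window had windows elsewhere, with 5 inside Trp63 (basal), 5 inside Pecam1 (endothelial) and 10 within 20 kb of Cd79a (blood). Others, such as Ptprc (blood), had none within 20 kb.

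Notch receptors are cell-surface proteins that are activated by Jagged and Delta-like ligands on neighbouring cells. Binding exposes the receptor to cleavage by an ADAM sheddase and then by the gamma-secretase complex. The freed intracellular part enters the nucleus and joins the DNA-binding protein RBPJ and Mastermind co-activators at genes such as Hes1 and Hey1, which encode basic helix-loop-helix repressors. In the mammary gland the pathway is known for its part in luminal cell fate, and Notch4 was first met as a site where mouse mammary tumour virus inserts.

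The sequences behind the main patterns are shown first. All were read from mm9, 5′ to 3′ on the strand of the gene. Positions are in bp from the main start site, which is the start of the protein-coding transcript with the longest coding sequence, and negative positions lie upstream of it. Hes1 and Hey1 are shown because each had a pair of the RBPJ core letters TGGGAA beside its start site. The Hes1 stretch, chr16:30065176-30065425 on the plus strand, is the 250 bases before the start. The Hey1 stretch, chr3:8667010-8667039 on the minus strand, is the first 30 bases of the transcript. Capitals mark TGGGAA.
Hes1: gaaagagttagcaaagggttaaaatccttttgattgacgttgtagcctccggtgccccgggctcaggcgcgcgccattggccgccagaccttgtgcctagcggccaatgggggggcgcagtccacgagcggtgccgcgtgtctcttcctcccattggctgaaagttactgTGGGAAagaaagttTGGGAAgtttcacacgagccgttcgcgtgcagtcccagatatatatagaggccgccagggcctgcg
Hey1: caTGGGAAggggcgcagcgTGGGAAaggga

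In Hes1 the pair was centred at -77 and -63 bp, and both copies ran in the direction of transcription. In Hey1 the pair was centred at 4 and 21 bp, again with both copies in the direction of transcription. Pairs at least as close, with both copies on 1 strand, also lay in later introns of other members. They were centred at 2617 and 2630 bp in Notch1, 91309 and 91318 bp in Notch2, and 2240 and 2252 bp in Jag2. Such pairs were thus not limited to the targets. Their share over all windows was not counted, so whether a pair beside a start site is unusual was not tested. Jag2 and Notch4 are shown next because their main start sites held the most and the fewest CpG among the 10 genes. The Jag2 stretch, chr12:114167707-114167856 on the minus strand, and the Notch4 stretch, chr17:34701063-34701212 on the plus strand, are the 150 bases before each start. Capitals mark CG.
Jag2: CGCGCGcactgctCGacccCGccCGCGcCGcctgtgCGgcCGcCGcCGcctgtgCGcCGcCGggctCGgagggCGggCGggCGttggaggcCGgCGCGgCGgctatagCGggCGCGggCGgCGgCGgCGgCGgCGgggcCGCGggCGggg
Notch4: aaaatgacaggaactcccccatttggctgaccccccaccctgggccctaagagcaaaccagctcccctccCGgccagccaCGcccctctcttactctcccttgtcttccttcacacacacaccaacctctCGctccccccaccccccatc

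The Jag2 stretch held 35 CpG and the Notch4 stretch held 3. Jag2 had 3 start-site windows and Notch4 had none. Notch1, the gene with the most windows of the 10, is shown in 2 places. The upstream stretch, chr2:26359343-26359592 on the minus strand, is the 250 bases before the main start, with matches to the TEAD letters GGAATG on either strand in capitals. The intron stretch, chr2:26349971-26350219 on the minus strand, lies in the window centred at 9276 bp, where capitals mark the longer RBPJ letters GTGGGAA and the AP-1 letters TGANTCA on either strand.
Notch1 upstream: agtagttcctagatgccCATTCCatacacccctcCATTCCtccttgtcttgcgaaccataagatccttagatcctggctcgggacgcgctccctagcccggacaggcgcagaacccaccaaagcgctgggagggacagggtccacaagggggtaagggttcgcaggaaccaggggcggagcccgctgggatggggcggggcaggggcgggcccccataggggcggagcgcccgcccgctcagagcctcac
Notch1 intron: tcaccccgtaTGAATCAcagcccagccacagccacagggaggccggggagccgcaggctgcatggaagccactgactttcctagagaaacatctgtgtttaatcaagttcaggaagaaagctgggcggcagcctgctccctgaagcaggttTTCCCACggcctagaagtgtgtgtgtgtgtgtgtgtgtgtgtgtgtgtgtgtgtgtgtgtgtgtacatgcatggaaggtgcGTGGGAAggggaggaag

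The Notch1 upstream stretch held 2 TEAD matches, centred at -214 and -231 bp. The intron stretch held 2 copies of GTGGGAA on opposite strands and 1 AP-1 match, the most matches to these letters in any window of Notch1.

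Of the 10 genes, 9 had a start-site window, and the exception was Notch4. The share over all protein-coding genes was 52.2%. Genes with a CpG-rich start site (GC of 50% or more and an observed over expected CpG ratio of 0.6 or more within 500 bp) had a window in 84.4% of 10781 cases, and the other 11561 genes in 22.2%. Notch1, Notch2, Jag1, Jag2, Dll1, Dll4 and Hey1 were of the CpG-rich kind, and all 7 had a window. Of the 3 members outside that class, Notch3 and Hes1 had a window and Notch4 did not. The count of 9 of 10 therefore stood above the share of all genes. For the 7 members of the CpG-rich class the count was near the 84.4% of that class. The other 3 members are too few to set beside 22.2%.

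The number of windows at the start sites was higher than in most genes that had any. Among those genes the median was 1 window, and among the 9 members it was 3. At least 3 start-site windows were listed for 6 of these 9 members, against 2147 of the 11664 genes that had any. Over all genes the share was 9.61%, and neither was split by CpG class. Hey1 had 4, and Notch1, Notch3, Jag1, Jag2 and Hes1 had 3 each. Notch2 and Dll1 had 2, and Dll4 had 1.

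**Figure D1:**
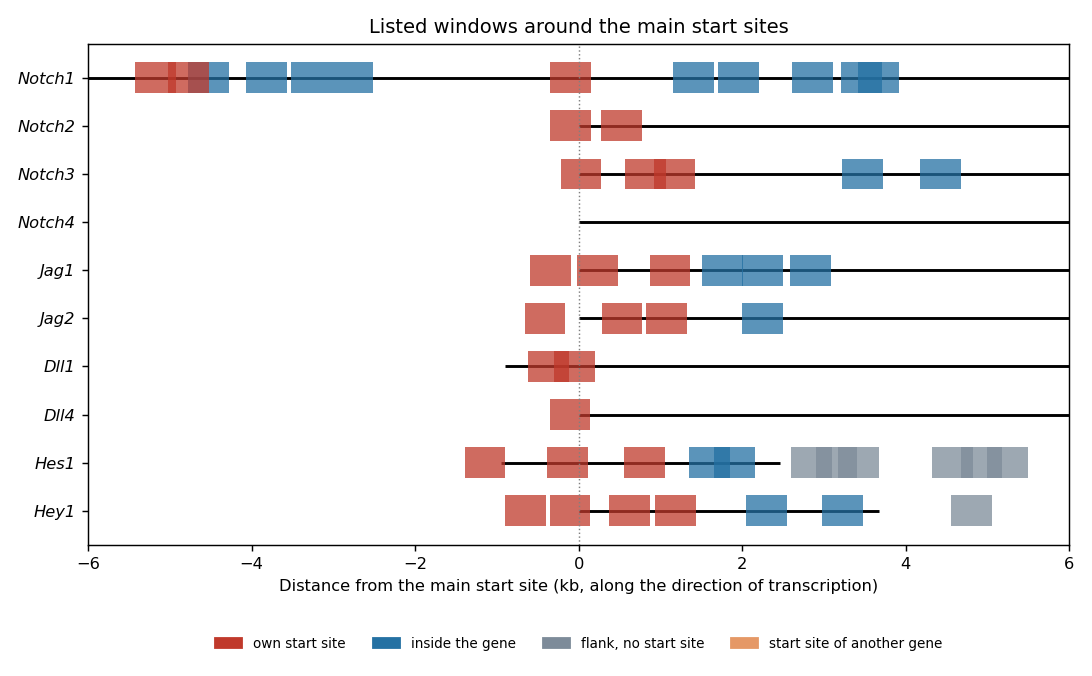
Windows of the list within 6 kb of the main start site of each gene, plotted by distance in kb along the direction of transcription. Each box is a window of 500 bp coloured by where it lies, and the black line is the annotated gene. A window covers the main start in 8 of the 10 genes, windows lie on both sides of it in Jag2, and the Notch4 row is empty.

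Window density was compared per length, as windows per 100 kb of gene plus flanks. The median over all genes was 2.924 and the upper quartile was 6.787, against a median of 8.912 over the members. All 10 members lay above the median of all genes and 9 above the upper quartile, and the exception was Dll4. Density was not set beside genes with a CpG-rich start site, the class of 7 members. Windows at the starts of other genes also counted toward it, at Notch1, Notch4, Jag2, Dll1 and Dll4. In order of density, Hes1 had 25.34 windows per 100 kb (percentile 99 among all genes), Notch1 22.28 (percentile 98.2), Hey1 16.03 (percentile 95.1) and Jag1 14.63 (percentile 93.8). These 4 genes lay above the rest of the members. The other 6 lay between 5.979 and 9.341, with Notch4 at 9.341, Notch2 at 8.483, Jag2 at 8.209, Dll1 at 8.078, Notch3 at 6.972 and Dll4 at 5.979. A single window more or less could change the order among these 6, and that of Hey1 and Jag1. It could also move Notch3 or Dll4 across the upper quartile. By role, the 2 targets held 18 windows (20.67 per 100 kb), the 4 receptors 49 (11.51 per 100 kb) and the 4 ligands 23 (9.754 per 100 kb). The flanks take up most of the searched length at the short genes, so windows beside a short gene weigh more than those beside a long gene. In raw counts, 11 or more windows were listed for 4 members (Notch1, Notch2, Jag1 and Hes1), against 4.78% of all genes.

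**Figure D2:**
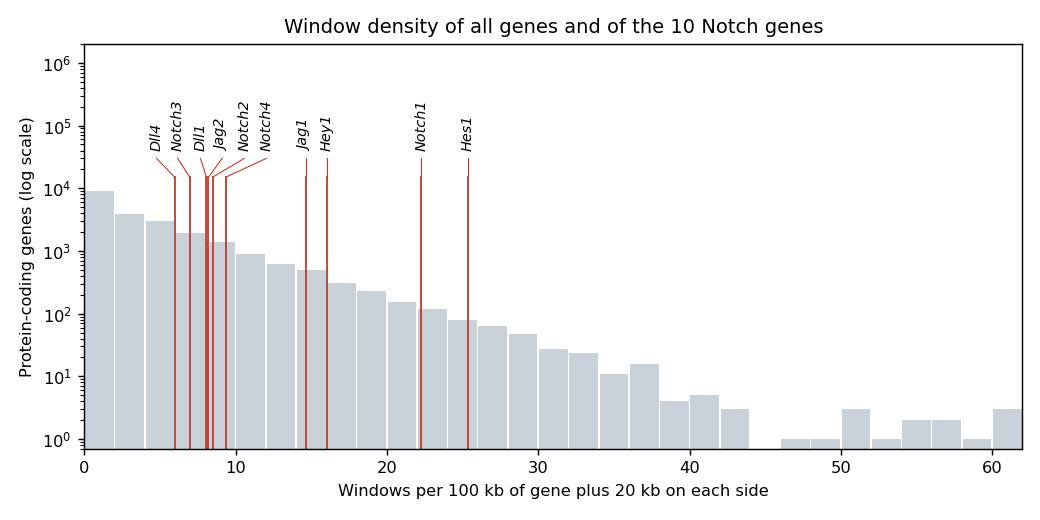
Distribution of window density over 22342 protein-coding genes, in windows per 100 kb of gene plus 20 kb on each side, with the number of genes on a log scale and the last bar holding all genes at 60 or more. Red lines mark the 10 members, of which Hes1 (25.34) and Notch1 (22.28) lie farthest to the right and Dll4 (5.979) farthest to the left.

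By position, 24 windows lay at a start site of their own gene, 24 in later introns, 4 in a first intron, 8 over exons and 5 inside Notch1 but before its main start. A further 6 lay upstream and 10 downstream of a gene. The remaining 9 lay within 1 kb of the start of another gene and are given below with the genes they flank. Of the exon windows, 7 were centred on coding sequence and 1, in Hey1, on the untranslated part of the last exon.

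**Figure D3:**
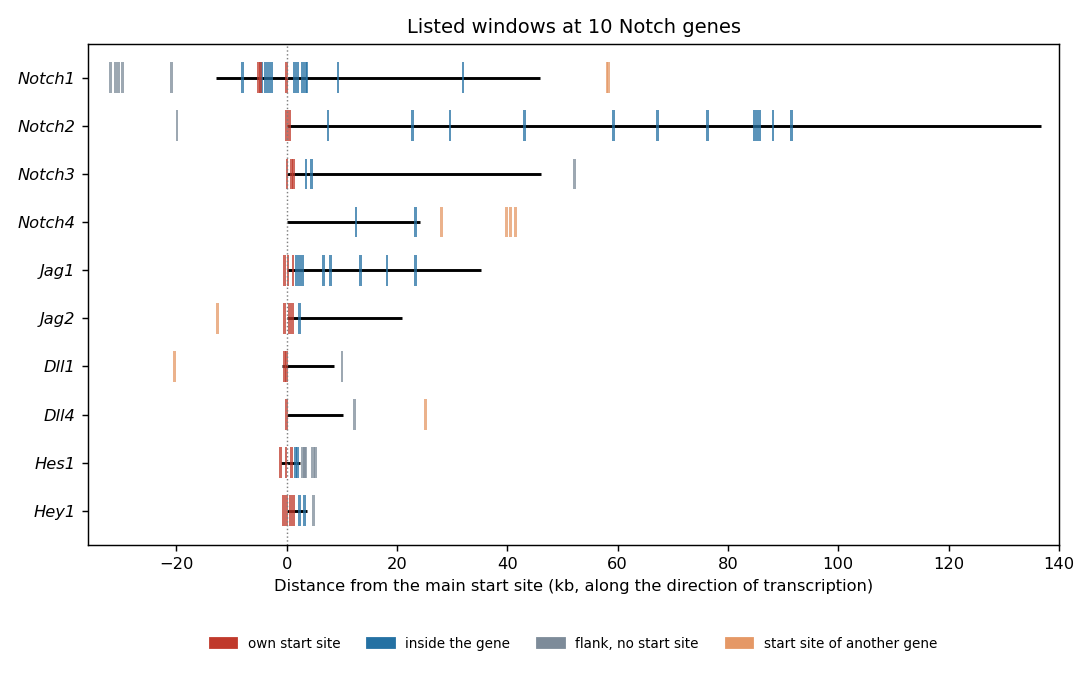
Listed windows at the 10 genes by distance in kb from the main start site, along the direction of transcription. Coloured boxes are windows of 500 bp, drawn to scale, and black lines are the annotated genes. Windows of Notch2 run to 91499 bp inside the gene, and those of Hes1 and Hey1 sit within 6 kb of the start.

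Among the receptors, Notch1 (chr2:26313423-26372183, minus strand) had 22 windows, of which 15 lay in the gene. Its main start site had 1 window, chr2:26359196-26359695, centred at -103 bp. Another coding start 5835 bp upstream had 2 windows, while the outermost pair of coding starts had none within 1 kb and the closest window centres were 4819 and 4846 bp away. Just upstream of the main start, from -5432 to -2522 bp, 6 windows covered 90.9% of a stretch of 2911 bp. Of these, 5 came from a single called peak with at least 5 summits. A second run of 6 windows reached from -353 to 3912 bp and included the main start. Another run, of 4 windows from a called peak with at least 4 summits, lay upstream of the whole gene from -32180 to -29468 bp. A further 2 windows in the flank behind the gene, centred at 58050 and 58386 bp, were at the start of Sec16a, which encodes a protein of endoplasmic reticulum exit sites.

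Notch2 (chr3:97817461-97954290, plus strand) had 15 windows spread over a far longer gene. The 2 start-site windows, centred at -0.097 and 0.521 kb, came from a single called peak. A further 3 windows lay in the first intron, 8 in later introns and 1 over the coding part of exon 4, and 1 lay upstream, centred at -19881 bp. Deep in the gene, from 84582 to 86071 bp, 3 windows from 3 called peaks joined end to end over 1490 bp, and 2 more windows followed at 88179 and 91499 bp. The windows of Notch2 were thus mostly single calls in introns, whereas those of Notch1 lay in runs around the start.

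Notch3 (chr17:32257765-32303825, minus strand), known for its part in vascular smooth muscle, had 6 windows. Its start-site windows, centred at 28, 820 and 1173 bp, formed a run of 1645 bp that was 82.2% covered. Later introns held 2 windows, at 3475 and 4430 bp, and 1 window lay behind the gene. The start site fell short of the CpG-rich class by the ratio alone, with 60.54% GC and an observed over expected ratio of 0.5829.

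Notch4 (chr17:34701213-34725448, plus strand), known best from endothelium, had no window near its start site. No window was kept for 266.5 kb, between the one that ended at chr17:34447038 and the one that began at chr17:34713521. In this stretch 9 protein-coding genes have a start site, and 3 called peaks were numbered but not kept. The start site was 54.45% GC, with 12 CpG within 500 bp and an observed over expected ratio of 0.1618, the lowest of the main start sites. Both windows inside the gene were centred on coding sequence, in exon 16 (12557 bp) and in the last of 30 exons (23359 bp). The latter was rich in CpG, with 63 in its 500 bp. The other 4 windows counted for Notch4 belonged to the starts of its neighbours, with 1 at Pbx2, a homeodomain factor gene, and 3 at Agpat1, of which 2 were also within 1 kb of the start of Rnf5. The density of Notch4 (9.341 windows per 100 kb) therefore rested largely on windows at other genes.

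Among the ligands, Jag1 (chr2:136907192-136942380, minus strand) had 11 windows, all inside the gene or just before its start. A run of 6 windows from -590 to 3083 bp covered 81.4% of 3674 bp. It joined the 3 start-site windows (centred at -0.34, 0.228 and 1.117 kb) to 3 windows of a called peak with at least 3 summits. Later introns held 4 more single windows, at 6678, 7950, 13367 and 18187 bp, and exon 9 held the last, at 23383 bp. The next kept window to the left of the group was 79197 bp away and the next to the right 526556 bp away, so the windows of Jag1 stood alone in a wide region.

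Jag2 (chr12:114146801-114167706, minus strand) had 3 start-site windows, centred at -0.412, 0.529 and 1.077 kb, and 1 in a later intron at 2.249 kb. None of them covered the start itself, which lay between windows of neighbouring called peaks with no peak number missing between them. The window at 0.529 kb held 83 CpG, the most of the start-site windows of the 10 genes. The fifth window was at the start of Nudt14.

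Dll1 (chr17:15504318-15513836, minus strand) had 4 windows and Dll4 (chr2:119151520-119161698, plus strand), a ligand known from endothelial sprouting, had 3. Both start-site windows of Dll1, at -47 and -366 bp, came from 1 called peak, and 1 more window lay behind the gene at 10041 bp. The single start-site window of Dll4 was centred at -106 bp, with 25 CpG, and 1 window lay behind the gene at 12232 bp. The remaining window of each was at another gene, Fam120b for Dll1 and Chac1 for Dll4. Neither Delta-like gene had a window in an intron or an exon beyond its start, unlike Jag1 and Jag2.

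The targets Hes1 and Hey1 are short genes, and their windows sat close together. Hes1 (chr16:30064470-30067882, plus strand) had 11 windows from 4 called peaks with consecutive numbers, each with several summits. They ran from -1396 to 5499 bp, past the end of the gene, and covered 66.2% of 6896 bp. The start-site windows were centred at -1147, -132 and 806 bp, 2 windows lay over coding sequence of the last exon and 6 lay behind the gene. Windows joined where their centres were within 2 kb formed 32795 stretches over the whole list, with a median of 1 window each, and 0.0457% of them (15) held 11 or more windows. The next kept windows were 30030 bp to the left and 101163 bp to the right.

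Hey1 (chr3:8663362-8667039, minus strand) had 7 windows from 3 called peaks in a stretch of 5954 bp, of which 58.8% was covered. Stretches with 7 or more windows made up 0.528% of all. A called peak with at least 4 summits gave the 4 start-site windows, centred at -0.652, -0.107, 0.626 and 1.183 kb. The others lay over the coding (2293 bp) and the untranslated (3231 bp) part of the last exon and just behind the gene (4802 bp).

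The names of the windows carry the number of the called peak and, where a peak had several summits, a letter. The numbers rise along the genome up to 109284, and 38400 of them (35.1%) are in the list. Between the first and the last peak counted for each member, 61 of 95 called peaks were kept (64.2%) and 34 were not. This share is taken between kept peaks, so it is bound to be higher than one over the genome. The missing peaks were unevenly spread over the members. Notch1 and Notch2 had 10 each, Notch3 had 4, Notch4 and Jag1 had 3, Dll1 had 2, Jag2 and Dll4 had 1, and Hes1 and Hey1 had none. Within these spans the receptors kept 35 and lost 27, the ligands kept 19 and lost 7, and the targets kept all 7. The spans differ widely in length, and the windows of Hes1 and Hey1 lay within 6896 and 5954 bp. Peaks left out in the rest of their flanks were not counted, so these numbers do not compare the members or the roles. At the outermost starts of Notch1, 2 called peaks were numbered but not kept. Called peaks that kept several windows gave 46 of the 90 (51.1%), against 39.8% of the whole list. No letter below the highest kept one was missing in 16 of 17 such peaks. The exception was a peak at the end of Hey1, where 1 of 3 was missing. A summit lettered beyond the highest kept one cannot be seen. The numbers of summits are therefore minimums, and this count does not show that all summits were kept.

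**Figure D4:**
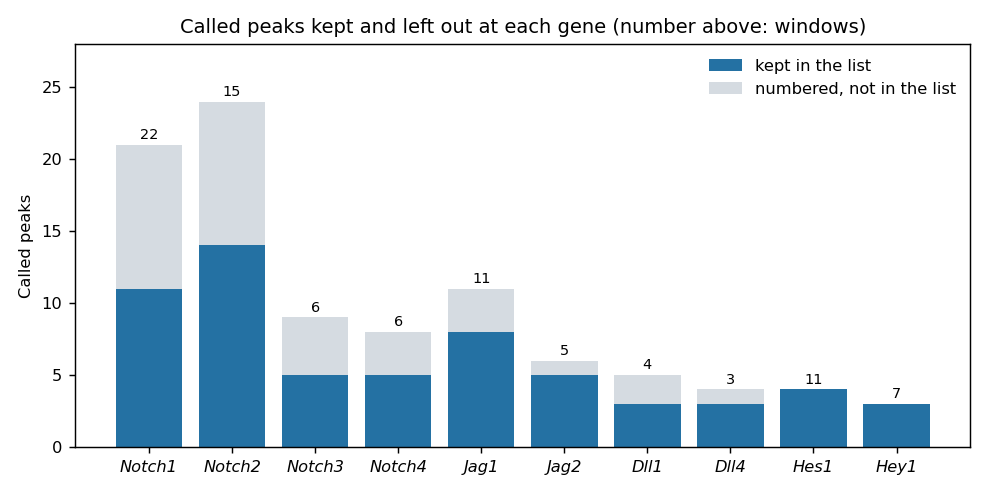
Called peaks between the first and the last one counted for each gene, split into those kept in the list and those numbered but not in it, with the number of windows printed above each bar. All 4 called peaks in this span at Hes1 were kept and gave 11 windows, while 10 of 24 in the much longer span at Notch2 were left out.

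In base composition the start-site windows of the members were close to those of other genes. Their median was 38 CpG and 64.2% GC (n = 24), against 34 CpG and 61.6% GC over all 18732 start-site windows. The range among the members was wide, from 3 CpG in the Notch1 window at -5182 bp to 83 CpG in Jag2. The 57 windows away from any coding start had a median of 7 CpG, as had the 31268 such windows of the list, with 54.4% against 50.4% GC. Windows of Hes1 away from its start were richer than that median. The windows at 4924 and 5249 bp, behind the gene, held 55 and 52 CpG, and the window at 1596 bp, over the last exon, held 48.

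Matches to the RBPJ core TGGGAA, on either strand, were found in 40 of the 90 windows (44.4%), against 39.3% of all windows. At the start sites the share was 12 of 24 (50%) against 34%, and away from them 27 of 57 (47.4%) against 42.4%. The longer GTGGGAA, each match of which is also a match of TGGGAA, was in 13 windows (14.4%), against 11.2%. Short letters of this kind occur often, windows that overlap share matches, and a match is not a bound site. Notch1 had TGGGAA in 12 of 22 windows, Notch2 in 6 of 15, Jag1 in 5 of 11, Notch3 in 4 of 6, Hes1 in 4 of 11 and Hey1 in 4 of 7. Jag2 had it in 2 of 5, Dll1 in 2 of 4, Notch4 in 1 of 6 and Dll4 in 0 of 3. A pair of exact copies on opposite strands within 30 bp, the layout of a paired RBPJ site, was found in 0 of the 90 windows and in 0.62% of all windows. The pairs in Hes1 and Hey1 ran in the same direction and were not counted by that search. A pair in which either copy differs from TGGGAA was also missed. The 0 therefore does not show that Hes1 or any other member lacks a paired site. Hes1 also had the most copies of GTGGGAA after Notch1, with 4 in 3 windows.

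Some other motifs lay further from their background in this small set of windows. The TEAD letters GGAATG were in 10 of 24 start-site windows (41.7%), against 18.7% of all start-site windows, and in 26.3% against 28.3% away from the starts. In the central 200 bp the gap at the start sites was smaller, with 3 of 24 windows (12.5%) against 7.51%. These 10 windows were spread over Notch1, Notch2, Jag2, Dll1, Hes1 and Hey1, and the overlapping windows of Dll1 shared a match. In Notch1 a TEAD match overlapped an RBPJ match at a single site, counted in 2 windows, and the letters joined in this way were in 2.54% of all windows. The AP-1 letters TGANTCA were in 0 of 24 start-site windows, against 8.21%, and in 8 of 57 others (14%), against 18.8%. Of those 8 windows, 4 were in introns of Notch2, 2 in Notch1, 1 in Jag1 and 1 behind Dll1. The SP/KLF letters GGGCGG stood at 66.7% against 69.2% at start sites and at 38.6% against 18.1% away from them. Most of the windows away from the starts with these letters lay in the Hes1 stretch or at Notch1, and overlapping windows of Hes1 shared matches. The hypoxia-inducible factor letters ACGTG were in 5 of 24 start-site windows (20.8%), against 36.3%, and GCGTG in 83.3% against 64.5%. ACGTG also lies within the E-box CACGTG, which was in 6 of the 90 windows (6.67%) and in 9.88% of all. The RUNX letters TGTGGT were in 22.8% of the windows away from the starts, against 32.5%. The GATA letters AGATAA were in 14% of these, against 16.6%. The NFI letters TTGGCA stood at 45.6% against 41.6%. The ETS letters CCGGAAG were in 8.33% of the start-site windows, against 17.3%.

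**Figure D5:**
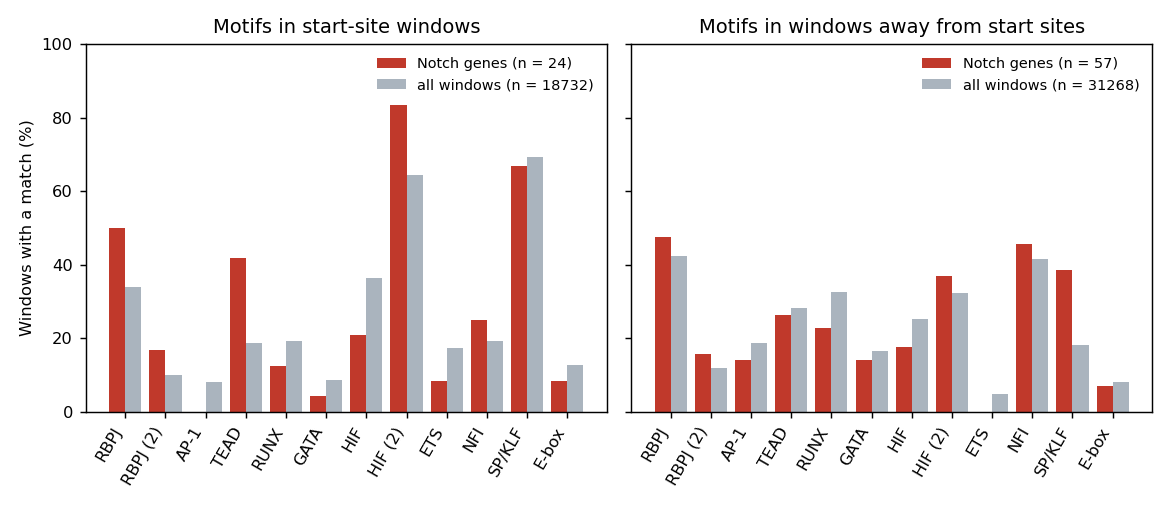
Share of windows (%) with at least 1 match on either strand, for 24 start-site windows and 57 windows away from start sites of the 10 genes (red) and for all windows of the same kind (grey). RBPJ stands for TGGGAA and RBPJ (2) for GTGGGAA, HIF for ACGTG and HIF (2) for GCGTG, and the other letters are spelled out in the text. The red bar is more than 20 points above the grey for TEAD at start sites (41.7% against 18.7%) and for SP/KLF away from them (38.6% against 18.1%).

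Other genes of the pathway were taken from a list of 55, of which 43 (78.2%) had a start-site window, against 52.2% of all genes. As 45 of the 55 had a CpG-rich start site, a class in which 84.4% of genes had a window against 22.2% of the others, this count was near the background of its start sites. The counts by role below are to be read against the same shares. Their median density was 4.461 windows per 100 kb, below the 8.912 of the 10 members. All 7 genes of the gamma-secretase complex, which cuts the receptor in the membrane, had a CpG-rich start site and a window, with 3 at Psenen and 2 at Ncstn. The same was true of both sheddase genes, Adam10 and Adam17. Of the glycosyltransferases that modify the receptor 4 of 5 had a window, and the exception, Mfng, was the member of this group without a CpG-rich start site.

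Of the genes for the nuclear complex 7 of 8 had a start-site window, and 6 had a CpG-rich start site. Rbpj had 2, Kat2b, which encodes an acetyltransferase, had 5, and Maml3 had 3, while Maml2 had none. Among the co-repressor genes, Tle1 had 6 start-site windows, Tle3 had 3 and Ctbp1 had 2. Of the genes for endocytosis and ubiquitin ligases 10 of 12 had a window and 10 a CpG-rich start site, with 4 windows at Numbl and 3 each at Dtx3, Dtx4 and Nedd4, and without any at Dtx1 and Neurl1b.

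The other ligands gave a different picture, while the count of the other targets was near the background of their start sites. None of the 4 further ligand-like genes (Dll3, Dlk1, Dlk2 and Dner) had a start-site window, although 3 of the 4 had a CpG-rich start site, whereas Jag1, Jag2, Dll1 and Dll4 all had at least 1. Among 12 other targets 8 had a window and 8 a CpG-rich start site, with 7 windows at Myc, 6 at Gata3, which was also among the luminal markers, and 3 at Hes6. Hes2, Hes3, Hes5 and Hes7 had none within 1 kb, but each had 4 to 6 windows within 20 kb. At Hes2, Hes3 and Hes5 none of these lay in the gene, and whether they belong to neighbours was not tested. All 4 genes had a window once the distance was widened to 5000 bp, for which the share over all genes is not given. The closest of those windows to a start site was centred 2068 bp from Hes7.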

How the data were processed

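The values used here are positions in 1 list of windows deposited by the authors for the whole series, columns of base positions with no score. The authors, by the study's methods, mapped reads to mm9 with Bowtie2 2.1.0, removed duplicates (Picard 1.79), called summits with MACS2 on pooled single cells, widened each summit to 500 bp and kept the 50000 windows with the lowest q-values. The q-values and counts were not used here, and the MACS2 version is not given in the sources used here. Only windows that passed this rank can be seen, and a broad open region gives several windows.

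From there, Python 3.11.15 scripts counted windows against GENCODE M1 on mm9 (chromosomes 1 to 19 and X), with start sites taken from protein-coding transcripts, and read CpG and motif letters from the mm9 genome. The counting was tested on simulated windows and motifs. No windows ran beyond a chromosome end. For 8 members a RefSeq promoter matched mm9 exactly. Motif matches were counted on both strands.

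The 10 genes and the lists were chosen with earlier results of these data known. All 10 members are named. Pathway genes are named by role, up to 4 with the most start-site windows and up to 4 without any, and neighbours where a window lies at their start. A pathway gene that this rule would name is not reported here. The main start rule, the 2 kb stretches and the printed sequences were chosen after the windows had been seen. Alternatives covered the distance to a start site, the flank, the unit counted, a restriction to broad called peaks (2 or more kept windows), and the central 200 bp.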

Additional observations from a re-analysis of the deposited data

How the results depend on the processing

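No paired analysis was possible because the list pools all cells into 1 sample and no test was made. Of 24 alternatives, 18 left a value within 1.5 times the main one. The counts of 9 members and 43 pathway genes could not rise by that much, as the lists hold 10 and 55 genes. Members with a start-site window numbered 9 within 500 bp, within 5000 bp and by window centre, 8 with the outermost start alone (Notch1 lost), 7 with called peaks of 2 or more kept windows (Jag2 and Dll4 lost), and 10 with starts of all annotated transcripts (Notch4 gained), an alternative chosen after seeing the data. The restriction to called peaks with 2 or more kept windows moved the pathway genes from 43 to 19 and the windows from 90 to 46, by construction, since it drops every single call. Within 5000 bp the pathway genes with a window numbered 48 (Hes2, Hes3, Hes5, Hes7 and Maml2 gained). The shares over all genes under these alternatives are not given, so these member and pathway counts cannot be set beside other genes. Windows numbered 62 in gene bodies alone and 77 with flanks of 10 kb. In the central 200 bp, motif matches were fewer, as less sequence was read. TGGGAA was in 21 windows in place of 40, GTGGGAA in 6 in place of 13, TGANTCA in 2 in place of 8 and GGAATG in 13 in place of 28 (at start sites 12.5% against 7.51% of all such windows). Starts from the RefSeq table were not run, as that table is on another build. Depth per window is unknown, so the list cannot show how open a window is or that a gene without one is closed.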
